A study of Mus musculus with 8 samples.

Results

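Wnt proteins are secreted signals that pattern the early embryo, and the transcripts followed here are those of 6 Wnt ligands (Wnt3, Wnt3a, Wnt8a, Wnt5a, Wnt5b and Wnt11) and 4 secreted antagonists (Dkk1, Sfrp1, Sfrp2 and Sfrp5). These 10 genes were taken by symbol from an expression table with 38610 symbols, and a value was given for each of them in all 8 libraries. The libraries came from differentiating CJ9 mouse embryonic stem cells, of strain 129S4/SvJae, 4 days after leukemia inhibitory factor (LIF), which holds such cells in self-renewal, was taken away.
Evx1as KO cells (3 libraries) lack Evx1as, a noncoding RNA transcribed antisense to the homeobox gene Evx1. EVX1 KO cells (3 libraries) are labelled as knockouts of the EVX1 protein. WT cells (2 libraries) are labelled as wild type of the same line, and all 3 groups had the same LIF withdrawal and the same harvest day. The series title gives CRISPR as the method of knockout. The position of each edit and the number of clones per genotype are not stated in the sources at hand. Nothing states that replicates were separate cultures, so each p-value measures only the spread between these libraries.

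Canonical Wnt ligands bind a Frizzled receptor together with LRP5 or LRP6 and stabilise beta-catenin, which then acts with TCF and LEF proteins on target genes. Wnt5a, Wnt5b and Wnt11 are best known for signalling without beta-catenin, in cell movement and tissue elongation. Secreted frizzled-related proteins (Sfrp) bind Wnt proteins outside the cell, and Dkk1 blocks LRP5 and LRP6. In the gastrulating mouse embryo Wnt3 is required to form the primitive streak, the site where mesoderm and endoderm arise.

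For 3 genes that moved differently between the groups, the ligand Wnt3 and the antagonists Dkk1 and Sfrp2, the 250 bases before a listed transcription start are shown, so that the sequence can be read beside the values that follow. They are from RefSeq (GRCm38.p6), 5′ to 3′ on the strand of the gene. Capitals mark CTTTGA, the core that TCF and LEF proteins bind, and TATAAA, the TATA box. Both strands were searched, and the letters of the other strand, TCAAAG for the core and TTTATA for the box, are marked likewise.
Wnt3: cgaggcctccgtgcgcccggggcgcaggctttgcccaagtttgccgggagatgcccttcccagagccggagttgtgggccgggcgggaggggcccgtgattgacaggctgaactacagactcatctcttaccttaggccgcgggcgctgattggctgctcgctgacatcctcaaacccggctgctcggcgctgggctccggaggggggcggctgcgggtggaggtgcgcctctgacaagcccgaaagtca
Dkk1: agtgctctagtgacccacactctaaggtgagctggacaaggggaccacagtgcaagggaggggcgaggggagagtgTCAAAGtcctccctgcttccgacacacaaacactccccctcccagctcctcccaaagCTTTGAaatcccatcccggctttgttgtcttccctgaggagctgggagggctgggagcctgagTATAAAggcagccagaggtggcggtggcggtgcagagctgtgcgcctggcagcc
Sfrp2: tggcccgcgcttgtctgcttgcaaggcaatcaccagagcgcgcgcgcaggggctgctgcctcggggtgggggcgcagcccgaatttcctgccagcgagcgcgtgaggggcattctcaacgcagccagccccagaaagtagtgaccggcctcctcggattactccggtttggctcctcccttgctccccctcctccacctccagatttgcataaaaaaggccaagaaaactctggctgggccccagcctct
The Wnt3 stretch lies at chr11:103773925-103774174 on the plus strand, the Dkk1 stretch at chr19:30549497-30549746 on the minus strand, and the Sfrp2 stretch at chr3:83766071-83766320 on the plus strand. On GRCm38 the Sfrp2 gene spans 83765750 to 83774314, so its stretch lies inside that span. Bases upstream of the span were not searched. The Dkk1 stretch holds CTTTGA 117 bases and TCAAAG 174 bases before the start, and TATAAA 54 bases before it. The Wnt3 and Sfrp2 stretches hold none of these letters, nor TAATTA, a homeodomain core, nor AGGTGTGA or TCACACCT, a T-box core. Across 32851 promoter windows of this length, 13.8% hold CTTTGA or TCAAAG, 12.4% TATAAA or TTTATA, 4.84% TAATTA and 1.12% the T-box core. The GC content is 68.0% for Wnt3, 60.8% for Dkk1 and 63.6% for Sfrp2, against a median of 52.4% over all windows. Of the 10 genes 7 had an entry in the promoter table, some with several starts, and 1 start each of Wnt5b and Wnt11 also holds the TCF and LEF core, 71 and 50 bases before it. A match is a description of the letters, not a measured site.

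Expression was deposited as FPKM, a fragment count divided by transcript length and by the depth of the library, so levels can be compared between genes. Summed FPKM lay between 531523 and 587798 per library, and 12244 to 12442 genes reached 1 FPKM. No read counts were used here, but low values of a gene lie at whole multiples of 1 fragment's worth, which gave a relative depth between 0.864 and 1.19. Evx1as, listed as 5730457N03Rik, averaged 0.0690 ± 0.0302 FPKM in Evx1as KO, 7.07 ± 1.92 in EVX1 KO and 6.05 ± 0.986 in WT (SD, n = 3, 3 and 2). Evx1 itself averaged 2.28 ± 1.66 FPKM in Evx1as KO, 26.3 ± 5.45 in EVX1 KO and 26.6 ± 6.50 in WT, so its transcript level gives no check of the EVX1 KO label. Changes were tested with limma on log2(FPKM + 1) over 13188 genes, those with at least 1 FPKM in at least 2 libraries, and genes with a Benjamini-Hochberg adjusted p below 0.05 were called. Fold changes are on that scale, which understates the change of low genes. Of the 10 genes 9 passed this filter, and Wnt3a did not.

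In Evx1as KO cells the ligands Wnt3, Wnt5a and Wnt5b and the antagonist Dkk1 fell relative to WT, and the antagonists Sfrp1 and Sfrp2 rose. Wnt8a, Wnt11 and Sfrp5 did not pass the test, and Wnt3a, which was not tested, was listed at 0 in all 3 Evx1as KO libraries. In EVX1 KO cells Wnt5a was the 1 tested gene of the set that passed the test against WT. Thus 6 of 9 tested genes were called in Evx1as KO against WT, where 24.5% of all tested genes were called (13.0% higher and 11.4% lower), and 1 of 9 in EVX1 KO against WT, where 1.24% were (0.690% higher and 0.554% lower). The median log2 fold change of all tested genes was 0.017 and 0.018 in these comparisons. In these bulk samples, fewer cells of a type and less RNA per cell cannot be told apart.

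**Figure D1:**
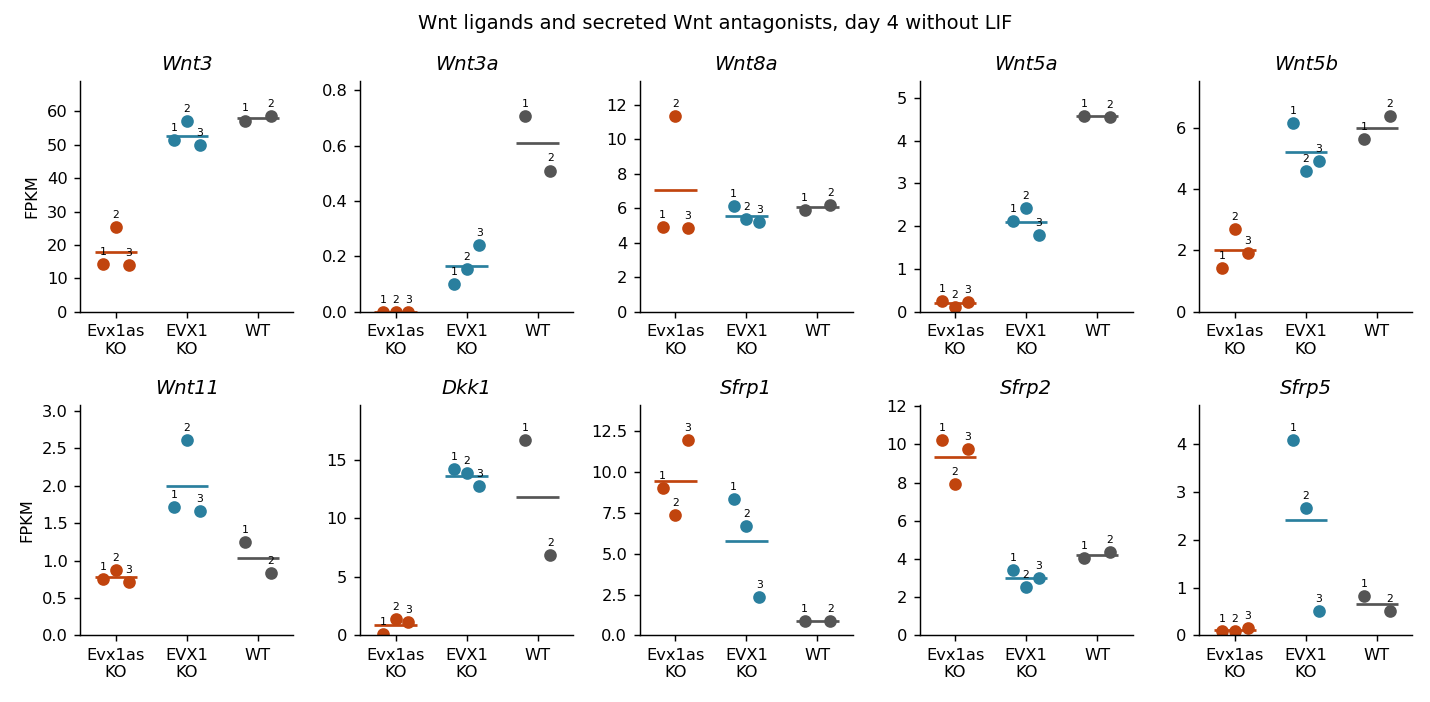
FPKM of the 10 genes in each library, with the library's replicate number beside its point, a line at the group mean and a separate linear axis from 0 for each gene. Wnt3, Wnt5a, Wnt5b and Dkk1 were lower in all 3 Evx1as KO libraries than in every other library, while Sfrp2 was higher there (7.94 to 10.2 FPKM, against 2.52 to 4.37 in the other 5).

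Wnt3, the streak-forming ligand, was the highest of the 10 genes in every group. It had 14.2, 25.5 and 14.0 FPKM in Evx1as KO, 51.3, 57.1 and 49.8 in EVX1 KO, and 57.3 and 58.5 in WT. All 3 Evx1as KO libraries lay below all others, with replicate 2 nearest to them, and the EVX1 KO libraries lay just below WT without overlap. How many of all tested genes lack overlap between groups was not counted. With so few libraries, a lack of overlap is therefore only a description, here and below. The log2 fold change was −1.70 ± 0.22 (SE) in Evx1as KO against WT (limma, adjusted p = 0.00187) and −0.14 ± 0.22 in EVX1 KO against WT (95% interval −0.63 to 0.36, adjusted p = 0.757). In the deposited table the gene spans 103635488 to 103679335 on chromosome 11, in coordinates that are not those of GRCm38.

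Wnt3a, a canonical ligand of the streak and tail bud in the mouse embryo, was near its detection limit throughout. It was listed at 0 in each of the 3 Evx1as KO libraries, at 0.0996, 0.153 and 0.241 FPKM in EVX1 KO, and at 0.706 and 0.510 FPKM in WT. The 3 groups did not overlap, but every value lay under 1 FPKM. In units of 1 fragment's worth these values correspond to 2, 3 and 5 fragments in EVX1 KO and to 14 and 12 in WT, each within 0.0026 of a whole number. With the filter on low values removed the gene entered the test and was called lower in Evx1as KO against WT, which made 7 called genes of 10.

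Wnt8a, another canonical ligand of the streak, did not follow Wnt3. It had 4.94, 11.3 and 4.87 FPKM in Evx1as KO, 6.12, 5.39 and 5.20 in EVX1 KO, and 5.90 and 6.18 in WT. The groups overlapped, and Evx1as KO replicate 2 stood above all other libraries while the other 2 Evx1as KO libraries were the lowest of the 8. The log2 fold change was 0.10 ± 0.29 in Evx1as KO against WT (95% interval −0.55 to 0.75, limma adjusted p = 0.828) and −0.10 ± 0.29 in EVX1 KO against WT (−0.75 to 0.54, adjusted p = 0.861). Without Evx1as KO replicate 2 the value against WT was −0.26, still not called.

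Among the ligands known for beta-catenin-independent signalling, Wnt5a had the lowest Evx1as KO levels relative to WT. It had 0.255, 0.102 and 0.225 FPKM in Evx1as KO, 2.12, 2.42 and 1.78 in EVX1 KO, and 4.57 and 4.56 in WT. The 3 groups did not overlap, with EVX1 KO between the others. The log2 fold change was −2.22 ± 0.15 in Evx1as KO against WT (limma adjusted p = 2.39e-04) and −0.85 ± 0.15 in EVX1 KO against WT (adjusted p = 0.0419).

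The EVX1 KO call for Wnt5a was a narrow one. It was kept in 4 of 16 alternative settings in which the gene was tested, with adjusted p between 0.0214 and 0.219, and in 1 of 8 settings that each left out 1 library, while its value stayed between −1.09 and −0.74. Leaving out any library other than EVX1 KO replicate 3 ended the call. Wnt5a lies on chromosome 14 (29318658 to 29338701 in the table), whose genes had medians of 0.13, −0.36 and −0.34 on the log2 scale in the Evx1as KO libraries, 0.17, 0.18 and 0.16 in EVX1 KO, and 0.05 and −0.03 in WT, relative to each gene's mean. With chromosome medians taken off, Wnt5a stood at −2.02 ± 0.18 in Evx1as KO against WT (adjusted p = 4.52e-04) and −1.01 ± 0.18 in EVX1 KO against WT (adjusted p = 0.0357).

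Wnt5b, the close relative of Wnt5a, fell in Evx1as KO as well. It had 1.44, 2.70 and 1.92 FPKM in Evx1as KO, 6.15, 4.60 and 4.93 in EVX1 KO, and 5.63 and 6.38 in WT. The Evx1as KO libraries lay below the others, while EVX1 KO and WT overlapped. By the test the log2 fold change was −1.23 ± 0.19 in Evx1as KO against WT (limma adjusted p = 0.00330) and −0.18 ± 0.19 in EVX1 KO against WT (95% interval −0.60 to 0.25, adjusted p = 0.627). By table position Wnt5b overlaps Fbxl14, which lay between 14.8 and 25.8 FPKM, and no source at hand says whether the counting used strand, so reads in the overlap cannot be told apart. Wnt5a likewise overlaps Gm2670 (at most 0.198 FPKM) and Sfrp2 overlaps AK137033 (at most 0.361 FPKM).

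Wnt11, which guides cell movement during gastrulation, was low in every group. It had 0.749, 0.870 and 0.713 FPKM in Evx1as KO, 1.72, 2.61 and 1.66 in EVX1 KO, and 1.24 and 0.838 in WT. Evx1as KO and WT overlapped, and the EVX1 KO libraries were the 3 highest. Neither knockout differed from WT by the test: the log2 fold change was −0.19 ± 0.19 in Evx1as KO (95% interval −0.62 to 0.23, limma adjusted p = 0.485) and 0.55 ± 0.19 in EVX1 KO (0.12 to 0.97, adjusted p = 0.151). In the coordinates of the table Wnt3a spans 59061543 to 59104253 on chromosome 11, Wnt5b 119382548 to 119494365 on chromosome 6, and Wnt11 105987354 to 106003257 on chromosome 7, while Wnt8a lies on chromosome 18. Chromosome medians of 6, 7, 11 and 18 stayed within 0.05 of 0 in every library.

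Dkk1, the antagonist that binds the LRP co-receptors, fell in Evx1as KO as Wnt3 did, while Sfrp1 and Sfrp2 rose. It had 0.146, 1.38 and 1.16 FPKM in Evx1as KO, 14.3, 13.9 and 12.7 in EVX1 KO, and 16.7 and 6.90 in WT. The 3 Evx1as KO libraries lay far below all others, replicate 1 lowest, and the WT libraries differed from each other more than the EVX1 KO libraries did. The log2 fold change was −2.71 ± 0.37 in Evx1as KO against WT (limma adjusted p = 0.00225) and 0.31 ± 0.37 in EVX1 KO against WT (95% interval −0.53 to 1.14, adjusted p = 0.670).

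The fall of Dkk1 was called whichever library was left out, with values between −3.29 and −2.13. In EVX1 KO the sign turned without WT replicate 2, to −0.28, still not called. In Evx1as KO the values stand at 1, 10 and 9 steps of 0.126 FPKM, a step set by these 3 low values alone. On that step EVX1 KO replicates 1 and 3 lay at 114.5 and 105.5 and WT replicate 1 at 132.4, not at whole numbers. The step may therefore hold more than 1 fragment, and the lowest value rests on few fragments whose number is not settled.

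Sfrp1, a frizzled-related protein that binds Wnt ligands, was higher in both knockouts than in WT in every library. It had 9.03, 7.34 and 12.0 FPKM in Evx1as KO, 8.33, 6.72 and 2.34 in EVX1 KO, and 0.897 and 0.861 in WT. The knockout groups overlapped each other, with EVX1 KO replicate 3 well below the rest of its group, and neither overlapped WT. Its log2 fold change was 2.45 ± 0.38 in Evx1as KO against WT, which was called (limma adjusted p = 0.00345), and 1.73 ± 0.38 in EVX1 KO against WT, which was not (adjusted p = 0.0637).

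For EVX1 KO the outcome for Sfrp1 depended on 1 library and on the settings, with a call in 3 of 17 alternatives. Without EVX1 KO replicate 3 the value was 2.18 and was called (adjusted p = 0.00816). With all libraries kept it was called with array weights (0.0145) and with a pseudocount of 0.1 (0.0496), and over all alternatives the adjusted p lay between 0.00816 and 0.255. Genes of chromosome 8, which carries Sfrp1 (24521973 to 24560104 in the table), had medians of 0.16, 0.15 and 0.15 (log2) in Evx1as KO, −0.38, −0.30 and 0.08 in EVX1 KO, and 0.11 and 0.01 in WT. With chromosome medians taken off, Sfrp1 stood at 2.35 ± 0.48 in Evx1as KO (adjusted p = 0.00868) and at 1.98 ± 0.48 in EVX1 KO (adjusted p = 0.0692).

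Sfrp2, the second of these Wnt-binding proteins, rose in Evx1as KO. It had 10.2, 7.94 and 9.78 FPKM in Evx1as KO, 3.44, 2.52 and 3.00 in EVX1 KO, and 4.06 and 4.37 in WT. The 3 groups did not overlap, with EVX1 KO lowest. Its log2 fold change was 0.98 ± 0.15 in Evx1as KO against WT (limma adjusted p = 0.00300) and −0.39 ± 0.15 in EVX1 KO against WT (95% interval −0.72 to −0.06, adjusted p = 0.176).

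Sfrp5, which marks anterior visceral and foregut endoderm in the mouse embryo, varied widely within EVX1 KO. It had 0.0873, 0.0825 and 0.154 FPKM in Evx1as KO, 4.09, 2.67 and 0.505 in EVX1 KO, and 0.829 and 0.507 in WT. The Evx1as KO libraries lay below all others, and EVX1 KO replicate 3 lay at the WT level while replicates 1 and 2 lay above it. The values correspond to 1, 1 and 2 fragments in Evx1as KO, 55, 35 and 7 in EVX1 KO, and 11 and 8 in WT, each within 0.0134 of a whole number. Its log2 fold change was −0.58 ± 0.43 in Evx1as KO against WT (95% interval −1.55 to 0.38, limma adjusted p = 0.345) and 0.87 ± 0.43 in EVX1 KO against WT (−0.09 to 1.84, adjusted p = 0.274). Sfrp5 (42272460 to 42276742) and Dkk1 (30620373 to 30623986) lie on chromosome 19 and Sfrp2 (83570242 to 83578236) on chromosome 3 in the table.

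Without EVX1 KO replicate 3, Sfrp5 was called higher in EVX1 KO against WT (1.38, adjusted p = 0.0228, with a range of 0.0228 to 0.553 over its alternatives). Sfrp5 reached 1 FPKM only in EVX1 KO replicates 1 and 2, so it passed the filter through the group where it is high. Replicate 3 also stood apart from its group in the chromosome 8 median (0.08 on the log2 scale, against −0.38 and −0.30). Whether this bears on Sfrp5 was not tested. Of the 5 definitive endoderm markers, Sox17, Foxa2 and Hhex were lowest of the EVX1 KO libraries in replicate 3, while Cxcr4 and Gata6 were lowest in replicate 1. Cer1, a secreted antagonist of Nodal, BMP and Wnt proteins, had 9.84, 12.6 and 5.72 FPKM in the EVX1 KO libraries. In those libraries Sox17 had 8.81, 8.48 and 2.27 FPKM, Foxa2 11.8, 14.3 and 5.93, Hhex 3.86, 3.96 and 2.58, Cxcr4 23.3, 36.3 and 29.7, and Gata6 6.37, 10.4 and 6.91. All 5 definitive endoderm markers together summed to 3.57 to 9.83 FPKM in Evx1as KO, 47.4 to 73.4 in EVX1 KO and 17.4 to 30.9 in WT. None of the 5 passed the limma test in EVX1 KO against WT, where 4 were higher at an unadjusted p under 0.05, as were 11.3% of all tested genes, and their part in the Sfrp5 values was not tested.

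**Figure D2:**
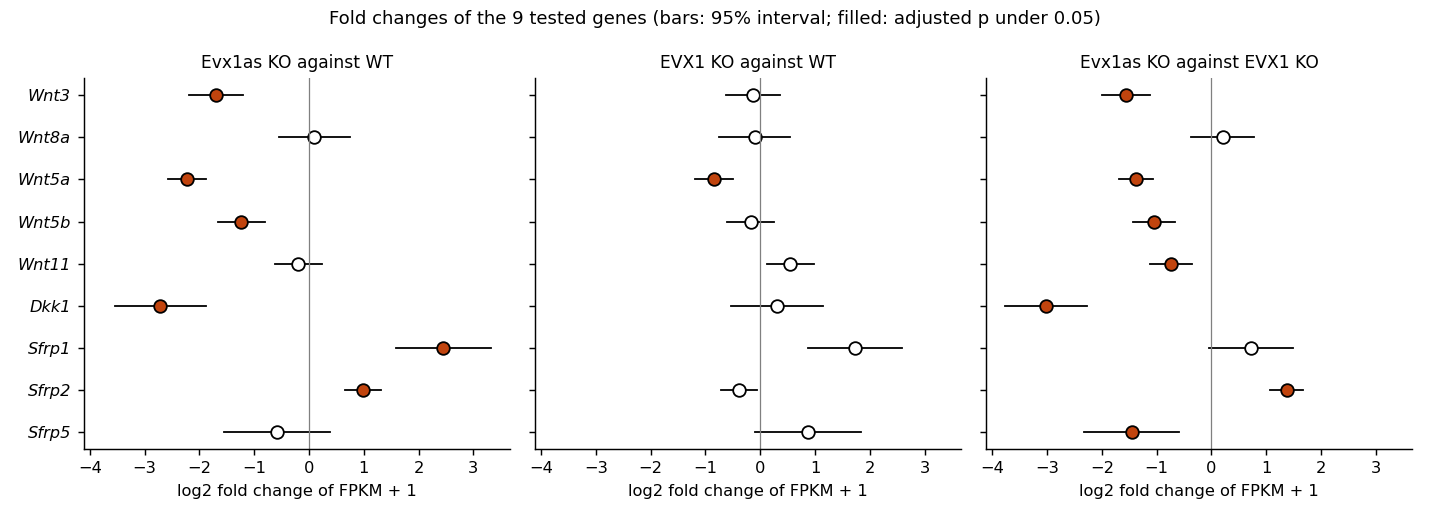
Log2 fold change of FPKM + 1 for the 9 tested genes in the 3 comparisons, with 95% intervals from limma, filled where the adjusted p was under 0.05. Of the 9 genes 6 were called in Evx1as KO against WT, 1 in EVX1 KO against WT and 7 in Evx1as KO against EVX1 KO.

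The knockouts were also set against each other, in a comparison that uses the same knockout libraries as those above. Of the 9 tested genes 7 were called in Evx1as KO against EVX1 KO, where 22.0% of all tested genes were called (11.3% higher and 10.7% lower). Wnt3 (log2 fold change −1.56 ± 0.20, limma adjusted p = 0.00134), Wnt5a (−1.38 ± 0.14, 5.04e-04) and Wnt5b (−1.06 ± 0.17, 0.00381) fell. Dkk1 fell by 3.02 ± 0.33 (6.94e-04), and Sfrp2 rose by 1.37 ± 0.13 (4.59e-04).

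Wnt11 and Sfrp5 fell in this comparison although neither was called against WT. Wnt11 stood at −0.74 ± 0.17 (limma adjusted p = 0.0156) and lost the call without Evx1as KO replicate 3 (0.0567) or EVX1 KO replicate 2 (0.0648), with a range of 0.00117 to 0.0648 over its alternatives. Sfrp5 stood at −1.46 ± 0.38 (adjusted p = 0.0266) and was called in 3 of 8 settings that left out 1 library. It lost the call without any of the 3 Evx1as KO libraries or without EVX1 KO replicate 1 or 2. Sfrp5 reached 1 FPKM only in EVX1 KO replicates 1 and 2, so it passed the filter through the group where it is high. With no filter Sfrp5 was not called (limma adjusted p = 0.075). Wnt11 reached 1 FPKM only in the 3 EVX1 KO libraries and in WT replicate 1. Sfrp1 and Wnt8a did not differ between the knockouts by the test, at 0.72 ± 0.34 (95% interval −0.05 to 1.50, adjusted p = 0.158) and 0.20 ± 0.26 (−0.38 to 0.78, adjusted p = 0.600).

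The order of levels within a group differed between the genotypes. In Evx1as KO, Wnt3 was followed by Sfrp1, Sfrp2 and Wnt8a, whose libraries overlapped, then Wnt5b, then Dkk1 and Wnt11, which overlapped, then Wnt5a and Sfrp5, which overlapped, and Wnt3a. Dkk1, as low as 0.146 FPKM there, also overlapped Wnt5a and Sfrp5. In EVX1 KO, Wnt3 was followed by Dkk1, then Sfrp1, Wnt8a and Wnt5b, each overlapping the next, then Sfrp2, Sfrp5, Wnt5a and Wnt11, each overlapping the next, and Wnt3a. Sfrp1, at 2.34 to 8.33 FPKM there, also overlapped Sfrp2, Sfrp5, Wnt5a and Wnt11. In WT, Wnt3 was followed by Dkk1, then Wnt8a and Wnt5b, which overlapped, then Wnt5a, Sfrp2, Wnt11 overlapping Sfrp1, and Sfrp5 overlapping Wnt3a. Dkk1 was thus the highest antagonist in EVX1 KO and WT, while Sfrp1 and Sfrp2 were the highest in Evx1as KO.

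Summed over the 4 antagonists, the levels of the 3 groups overlapped. The sum was 19.5, 16.7 and 23.1 FPKM in Evx1as KO, 30.1, 25.8 and 18.6 in EVX1 KO, and 22.5 and 12.6 in WT, with no library of Evx1as KO outside the range of the other 5. Sfrp1 and Sfrp2 alone summed to 19.3, 15.3 and 21.7 FPKM in Evx1as KO, 11.8, 9.24 and 5.34 in EVX1 KO, and 4.95 and 5.24 in WT. The 6 ligands summed to 21.6, 40.5 and 21.7 FPKM in Evx1as KO, 67.5, 72.2 and 63.6 in EVX1 KO, and 75.3 and 77.0 in WT. The ratio of Wnt3 to Sfrp1 plus Sfrp2 was 0.736, 1.67 and 0.643 in Evx1as KO, 4.35, 6.18 and 9.34 in EVX1 KO, and 11.6 and 11.2 in WT. The groups did not overlap in this ratio, which was formed from genes whose changes were known and leaves out Dkk1. The ratio of all 6 ligands to all 4 antagonists did overlap between neighbouring groups, at 1.11, 2.42 and 0.941 in Evx1as KO, 2.24, 2.80 and 3.43 in EVX1 KO, and 3.35 and 6.09 in WT.

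The share of Wnt8a in the 6-ligand sum was larger in all 3 Evx1as KO libraries than in any other. It made up 22.9%, 28.0% and 22.4% of that sum in Evx1as KO, 9.07%, 7.46% and 8.16% in EVX1 KO, and 7.84% and 8.03% in WT. Wnt3 made up 62.9% to 65.8% in Evx1as KO, 76.0% to 79.0% in EVX1 KO and 76.0% in both WT libraries. The larger share of Wnt8a is a share of a lower sum. Wnt8a itself, at 4.94, 11.3 and 4.87 FPKM in Evx1as KO, was not called against WT.

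**Figure D3:**
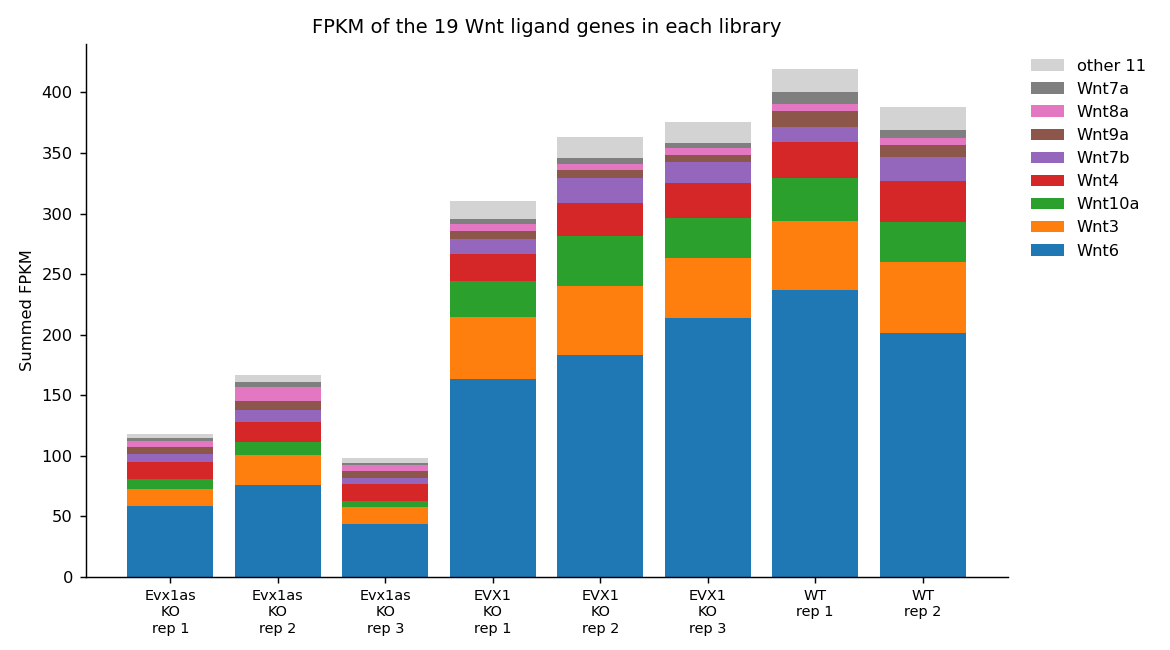
Summed FPKM of the 19 Wnt ligand genes of the table in each library, stacked by gene with the 8 highest named. The bars reach 98.3 to 166 FPKM in Evx1as KO, 310.3 to 375 in EVX1 KO and 388 to 419 in WT, and Wnt6 is the largest layer in each.

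The table held 13 other Wnt ligand genes, of which 9 were tested. All 9 fell in Evx1as KO against WT, with a median log2 fold change of −1.06. Together with the 5 tested ligands above, 12 of 14 fell and none rose at the adjusted threshold (limma), where 11.4% of all tested genes fell. The same counts held at an unadjusted p under 0.05, where 18.1% of all tested genes fell and 20.4% rose. Wnt10a (−2.04 ± 0.26, limma adjusted p = 0.00172), Wnt6 (−1.90 ± 0.20, 0.00102), Wnt7a (−1.33 ± 0.26, 0.00794) and Wnt2b (−1.27 ± 0.20, 0.00330) had the largest changes. Without WT replicate 1 fewer of the 9 were called, and Wnt7a, at −1.01, lost its call. In that setting calls over all tested genes dropped as well.

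Wnt6 was the most abundant Wnt transcript in each library, above Wnt3. It had 58.1, 75.4 and 43.6 FPKM in Evx1as KO, 163, 183 and 213 in EVX1 KO, and 237 and 201 in WT. Its share of the 19-gene sum was 44.4% to 49.2% in Evx1as KO, 50.4% to 56.9% in EVX1 KO and 51.9% to 56.5% in WT, and the share of Wnt3 was 12.0% to 15.3%, 13.3% to 16.5% and 13.7% to 15.1% in the same groups. By table position Wnt6 and Wnt10a lie 6698 bases apart on chromosome 1, Wnt9b and Wnt3 24352 bases apart on chromosome 11, and Wnt3a and Wnt9a 16177 bases apart on chromosome 11. Chromosome 1 medians lay between −0.10 and −0.09 (log2) in Evx1as KO, between 0.12 and 0.14 in EVX1 KO and between −0.10 and 0.02 in WT. None of the 9 passed the limma test in EVX1 KO against WT, where 1 was higher and 3 were lower at an unadjusted p under 0.05, as were 11.3% and 9.92% of all tested genes.

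Of 10 other secreted antagonists 5 were tested, and Frzb, a relative of the Sfrp genes, was the 1 that fell in Evx1as KO against WT (−1.54, limma adjusted p = 0.00233). Over all tested genes 11.4% fell there. Frzb had 0.877, 0.518 and 0.533 FPKM in Evx1as KO, 4.72, 4.69 and 6.84 in EVX1 KO, and 2.98 and 4.67 in WT. Frzb lay below every other library in all 3 Evx1as KO libraries, unlike Sfrp1 and Sfrp2. Cer1 reached 1 FPKM in all 3 EVX1 KO libraries and otherwise only in Evx1as KO replicate 2, so it passed the filter through EVX1 KO. With no filter Cer1 was not called in EVX1 KO against WT (limma adjusted p = 0.0737). Cer1, named here after its values were seen, was the 1 that rose in EVX1 KO against WT (2.74 ± 0.40, adjusted p = 0.0266), and lost the call without EVX1 KO replicate 1 or 2 or either WT library (adjusted p of 0.0660, 0.113, 0.176 and 0.101). Over all its alternatives the adjusted p lay between 0.00607 and 0.176.

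The called receptors showed no common direction in Evx1as KO against WT, where 13.0% of all tested genes rose and 11.4% fell. Of 12 Frizzled and LRP genes 10 were tested in Evx1as KO against WT, where Fzd8 (1.07) and Fzd7 (0.65) rose, Fzd10 (−1.49) and Fzd1 (−0.87) fell, and the list's median was 0.23. The remaining tested genes of this list had positive values but were not called. Fzd10 had 12.6, 15.7 and 11.6 FPKM in Evx1as KO, 49.5, 48.1 and 38.1 in EVX1 KO, and 34.8 and 43.5 in WT, with Evx1as KO below all others. Fzd7 and Fzd1 lost their calls without WT replicate 2, as did Fzd1 without WT replicate 1 or Evx1as KO replicate 3. Of 6 alternative receptors and Kremens, Ror2, a receptor for Wnt5a (−1.09), and Kremen2, a Dkk1 receptor (−0.91), fell, and Kremen2 lost its call without WT replicate 1.

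R-spondins, which amplify Wnt signals by removing the receptor-degrading ligases Rnf43 and Znrf3, moved in opposite directions. Of 9 genes 5 were tested, and Rspo1 rose (1.07) while Rspo3 (−2.03) and Rnf43 (−0.58) fell in Evx1as KO against WT. Over all tested genes 13.0% rose and 11.4% fell there. Rspo3 had 0.813, 1.54 and 0.659 FPKM in Evx1as KO, 6.58, 5.44 and 4.65 in EVX1 KO, and 7.72 and 6.41 in WT. Among 4 genes of Wnt secretion and modification, Wls, the carrier that brings Wnt proteins to the cell surface, fell by 0.58, and Gpc3 fell by 1.53. The call of Rnf43 was lost without Evx1as KO replicate 1 or WT replicate 1.

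Among 13 intracellular components, Tcf7l1, Dvl1 and Tcf7 rose and Lef1 and Tcf7l2 fell in Evx1as KO against WT, with a median of 0.09. Over all tested genes 13.0% rose and 11.4% fell there. Lef1, a transcription factor through which beta-catenin acts (−1.59), had 4.24, 5.33 and 5.81 FPKM in Evx1as KO, 8.09, 11.3 and 16.3 in EVX1 KO, and 19.2 and 15.5 in WT. Tcf7l1, which mostly represses the same targets (0.88), had 130.1, 97.7 and 144 FPKM in Evx1as KO, 104, 91.6 and 78.8 in EVX1 KO, and 67.4 and 64.8 in WT. The count of 5 was 3 without Evx1as KO replicate 3, where calls over all tested genes went from 3230 to 1804. It was also lower without either WT library, as were the calls over all tested genes. The calls of Tcf7l1, Dvl1 and Tcf7l2 were among those lost.

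Of 12 genes known as beta-catenin targets 11 were tested, and 9 fell and none rose in Evx1as KO against WT (limma), where 11.4% of all tested genes fell. The median was −1.24. At an unadjusted p under 0.05 none was higher either, where 20.4% of all tested genes were higher and 18.1% lower. Of the 12, T, Fgf8, Msgn1, Cdx2 and Tbx6 also stand in the cell type marker lists, so the counts are not separate. Those with the largest changes were Msgn1 (−4.05), Cdx2 (−2.67), T (−2.07) and Cdx1 (−1.63). Without WT replicate 2 fewer targets were called, and T lost its call without either WT library. Calls over all tested genes dropped in these settings as well. In EVX1 KO against WT, Msgn1, a transcription factor of presomitic mesoderm, was the 1 target that passed the test (−2.62 ± 0.29, limma adjusted p = 0.0124), and it lost the call without WT replicate 1 (0.145) or 2 (0.0622), with a pseudocount of 0.1 (0.0682) and with no filter (0.0515), over a range of 0.00607 to 0.145.

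**Figure D4:**
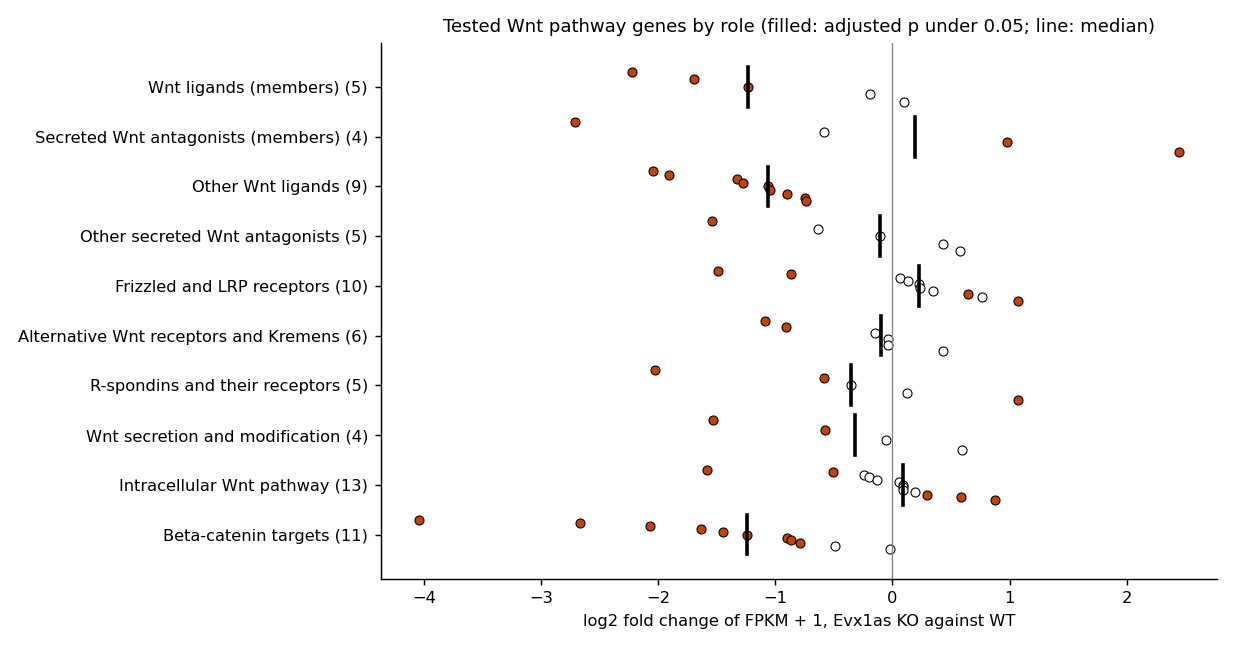
Log2 fold change of FPKM + 1 in Evx1as KO against WT for each tested Wnt pathway gene, grouped by role with the number tested in brackets, filled where the limma adjusted p was under 0.05, and a line at each list's median. The ligand and target lists lie mostly below 0 (medians −1.23, −1.06 and −1.24), while receptors (0.23) and intracellular components (0.09) spread on both sides.

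Wnt3, Wnt5a, Wnt5b and Dkk1 were low in the same libraries as streak and mesoderm markers, while Wnt8a and Wnt11 overlapped WT. The 6 primitive streak markers summed to 93.7, 195 and 68.7 FPKM in Evx1as KO, 523, 453 and 432 in EVX1 KO, and 387 and 450.0 in WT. By the limma test 6 of 6 fell in Evx1as KO against WT, where 11.4% of all tested genes fell. The marker lists were chosen with earlier results of these data known. Evx1, which overlaps the edited Evx1as gene, is one of the 6, and the other 5 summed to 91.2, 191 and 68.2 FPKM in Evx1as KO, 496, 432 and 400.4 in EVX1 KO, and 365 and 419 in WT. Evx1as KO replicate 2, the library of its group with the highest streak sum, was also its highest for Wnt3, Wnt8a, Wnt5b, Wnt11 and Dkk1. It was the lowest of its group for Wnt5a, Sfrp1, Sfrp2 and Sfrp5. Of these, Sfrp5 stood at 1, 1 and 2 fragments in that group and Wnt5a at 0.102 to 0.255 FPKM, so their order says little. How many of all tested genes had replicate 2 at an end of its group was not counted. The 6 nascent mesoderm markers summed to 2.62 to 5.93 FPKM in Evx1as KO, 27.3 to 67.3 in EVX1 KO and 52.2 to 74.0 in WT, and 5 fell. Fewer streak markers were called without either WT library, and fewer mesoderm markers without WT replicate 1. In these settings only the other WT library is left, and calls over all tested genes dropped as well.

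In Evx1as KO, Sfrp1 and Sfrp2 were higher than in WT, as were epiblast markers. The 6 epiblast markers summed to 361 to 398 FPKM in Evx1as KO, 207 to 236 in EVX1 KO and 131 to 171 in WT. Of these, 5 rose in Evx1as KO against WT, where 13.0% of all tested genes rose and 11.4% fell. In EVX1 KO this sum and Sfrp1 lay above WT, but Sfrp2 lay below WT (2.52 to 3.44 FPKM against 4.06 and 4.37). Of 6 pluripotency markers, Nanog and Pou5f1 rose and Klf4 fell. Their part, and that of the streak and mesoderm markers, in the Wnt and Sfrp values was not tested.

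Markers of cells that such cultures can also hold were given the same reading in Evx1as KO against WT. Over all tested genes 13.0% rose and 11.4% fell there. Trophoblast markers, of which 5 of 6 were tested, summed to 879 to 1446 FPKM in Evx1as KO, 1711 to 2172 in EVX1 KO and 2579 to 3089 in WT, nearly all of it Krt8 and Krt18, and 4 fell while Elf5 was under 1 FPKM in every library. Fibroblast or feeder markers summed to 14.9 to 25.2 FPKM in Evx1as KO, 26.6 to 33.5 in EVX1 KO and 22.8 to 37.5 in WT, with Col3a1 the 1 of 6 tested that fell. Of 8 extraembryonic endoderm markers Afp, Ttr, Amn, Apoa1 and Sox7 were under 1 FPKM in every library, and Sparc, at 234 to 261 FPKM in Evx1as KO and 411 to 414 in WT, was the 1 that fell. Of 5 neuroectoderm markers Pax6, Zic1 and Hes5 were under 1 FPKM in every library and Sox1 rose, while 2 of 5 definitive endoderm markers, Cxcr4 and Gata6, fell. The part of these markers in the Wnt and Sfrp values was not tested.

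The genes whose pattern over the 8 libraries came closest to each called gene were sought among tested genes averaging 5 FPKM or more, by the root mean square difference of centred log2 values. Fn1, which encodes the matrix protein fibronectin, lay nearest to Wnt3 (0.14), and had 193, 373 and 231 FPKM in Evx1as KO, 768, 769.5 and 707 in EVX1 KO, and 869 and 670.0 in WT. Like Wnt3, Fn1 had its highest Evx1as KO value in replicate 2 and no overlap between Evx1as KO and the other groups. The nearest were Tgfb2 for Wnt5a (0.29), Dusp9 for Wnt5b (0.11), Six2 for Dkk1 (0.38), Hif3a for Sfrp1 (0.37) and Gsta4 for Sfrp2 (0.15). Among the 9 tested genes themselves the closest pair was Wnt3 and Wnt5b (0.30), and Sfrp1 and Sfrp2 lay 0.92 apart. These distances describe 8 libraries that share the study's groups, and they carry no test.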

How the data were processed

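mRNA of 8 samples was sequenced from stranded TruSeq libraries, per the labels' protocols. Expression was deposited by the authors as 1 table of FPKM for all 8 libraries. Per the submitters' processing notes, the tools were CASAVA and TopHat2 2.0.11 and the mouse builds mm9 and mm10, and what each was used for is not stated. How FPKM was computed, from which annotation and with which strand setting, is not stated in the sources at hand. Of 45772 lines in the table, 3527 were blank, and the rest carried 38610 symbols. Symbols on several lines had the same values on each and were used once. The positions of 9 of the 10 genes did not overlap those on GRCm38, so table coordinates are quoted as deposited.

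A gene was tested if 2 or more libraries reached 1 FPKM. Log2(FPKM + 1) values of all 8 libraries entered 1 limma model (limma 3.58.1, R 4.3.3) with a coefficient for each group (intensity trend, two-sided, Benjamini-Hochberg adjustment over all 13188 genes), tested on simulated data first. Figures and summaries used Python 3.11.15, pandas 2.3.3, numpy 2.4.6 and matplotlib 3.10.9. Relative depth came from the steps between low FPKM values, and absolute depth is unknown; of 3282 low genes on 1 line, 79.9% gave whole steps to within 0.1. The 10 genes and all lists were chosen with earlier results of these data known. From each other pathway list up to 4 called genes were named, those with the largest change in Evx1as KO against WT. The alternatives were other pseudocounts, filters and scalings, a fit of only the groups compared, array weights, a replicate block, chromosome medians taken off, and leaving out each library.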

Additional observations from a re-analysis of the deposited data

How the results depend on the processing

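In Evx1as KO against WT the number of called genes among the 10 was 6 under most alternatives, 5 with a filter of 5 FPKM, which leaves out Wnt5a, and 7 with no filter, and it was 6 whichever library was left out. The 6 genes kept their calls in every alternative that tested them. Over all tested genes fewer were called without either WT library than the 3230 of the main fit. Other genes and lists lost calls there too. Without WT replicate 1, Kremen2 went from −0.91 to −0.75 and Rnf43 from −0.58 to −0.43. Fzd1 went the other way, from −0.87 to −0.98, as did T, from −2.07 to −2.17. Why these calls were lost was not tested. In EVX1 KO against WT the count of 1 became 0 with a pseudocount of 0.5, a filter of 5 FPKM, no filter, a fit of only the 2 groups or the replicate block, and 4 with array weights, and leaving out 1 library gave 0 to 3. With a pseudocount of 0.1 the count was 1, but the gene was Sfrp1 and not Wnt5a. In that comparison the number of calls over all genes lay between 4, without EVX1 KO replicate 2, and 1148, with array weights, against 164. The filter of 5 FPKM leaves Wnt5a out; for the other changes the cause was not tested. In Evx1as KO against EVX1 KO the count of 7 became 4 with a filter of 5 FPKM, where fewer of the genes were tested, and 5 to 7 when 1 library was left out.

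Signs turned only for values that were not called: without Evx1as KO replicate 2, Wnt8a turned to −0.26 in Evx1as KO against WT and to −0.15 in Evx1as KO against EVX1 KO, and over all libraries left out it ranged from −0.26 to 0.28 and from −0.15 to 0.38. With the replicate block Wnt8a stood at 0.0083 in EVX1 KO against WT. Without WT replicate 2, Dkk1 turned to −0.28 in EVX1 KO against WT, with a range of −0.28 to 0.89 over the libraries left out. The cause was not tested. Deviations from the group means correlated at −0.10 to 0.076 between libraries with the same replicate number, and at −0.16 to 0.16 between those with different numbers. Such deviations cancel within each small group, so these correlations cannot decide whether the numbers pair libraries. With the replicate block the counts were 6 in Evx1as KO against WT, 0 in EVX1 KO against WT and 7 in Evx1as KO against EVX1 KO.

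The 2 WT libraries limit every comparison with WT, and values under 1 FPKM rest on few fragments.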
